A study of Mus musculus with 12 samples.

Results

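The genes described here encode the building blocks of the extracellular matrix and the enzymes that cut it: collagen chains, laminin chains, matrix metalloproteinases (MMPs) and their tissue inhibitors (TIMPs). They were taken from the expression table by gene symbol, as every symbol of the form Col, a number, a and a number, every laminin alpha, beta or gamma chain, every Mmp and every Timp, with Mmp7 left out. This gave 65 of the 17175 genes in the table: 34 collagen chains, 10 laminin chains, 17 MMPs, 3 TIMPs and Col4a3bp, which encodes a ceramide transfer protein and is no collagen. RNA was measured by sequencing in mouse small intestine, with 3 libraries in each of 4 groups: WT proximal, WT distal, Bmpr1a cKO proximal and Bmpr1a cKO distal. The Bmpr1a protein is a receptor kinase that binds bone morphogenetic proteins (BMPs), and the series asks how BMP signalling in the epithelium bears on villus length along the intestine. The deleting Cre line, the floxed allele, the treatment and the age of the mice are not given in the sources used here. Nothing in the labels says whether libraries of a group came from separate mice, and each p-value below is set against the spread between those libraries. That spread may be technical, though not wholly so in cKO, where reads of Y-linked genes (below) differed between libraries. Genes Lama3, Mmp3 and Timp4 were not analysed here.

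Collagens are triple helices of alpha chains. The fibrillar types I, III and V form the fibrils of the connective tissue core of the villus and the submucosa, where fibroblasts make most of them, while collagen IV and the laminins form the sheet of basement membrane under the epithelium. A laminin is a cross of 1 alpha, 1 beta and 1 gamma chain, and the intestinal epithelium sits on laminins that its integrins bind. MMPs are zinc-dependent proteases, secreted or held in the plasma membrane, that cut collagens and other matrix proteins, and TIMPs block their active site.

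Depth ran from 11242024 to 17722756 reads per library, and the 65 genes took 0.0455% to 0.255% of them. Values are normalised read counts as deposited, with 1 read added to every gene, and fold changes are on the log2(value + 1) scale, which understates those of genes with few reads. The mean over all 12 libraries was at least 10 for 50 of the genes, while 15 of the genes were without reads (0) in 1 library or more. Bmpr1a itself measured 1029, 772 and 1019 in WT proximal, 911, 833 and 1087 in cKO proximal, 438, 527 and 631 in WT distal and 510.7, 668 and 486 in cKO distal libraries. A gene-level count can take in exons outside the deleted part and cells in which no deletion took place, so it is no check of the genotype labels. The libraries numbered 1 of both cKO groups had 0 reads of 4 Y-linked genes (Uty, Eif2s3y, Ddx3y and Kdm5d), against 158 or more of each in the other 10 libraries. Each cKO group thus held libraries with and without Y-linked reads, and the WT groups held only libraries with them. Reads of mitochondrially encoded mRNA took 9.75% to 27.7% in cKO and 17.4% to 37.7% in WT libraries. As a check of the labelled tissue, all 12 epithelial markers listed (Epcam, Vil1, Krt20 and others) were detected, with summed values of 163857 to 404807 per library.

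Levels of different genes were set side by side per kilobase of exon. The length used was that of all annotated exons of a gene together, not of 1 transcript, so this comparison is rough. On average over the 12 libraries, the most abundant of these genes were Col3a1 (normalised value per kilobase 339), Lamb3 (225), Col1a1 (223), Mmp15 (199), Timp1 (194), Col1a2 (189), Col6a1 (122) and Timp2 (116). Before division by length, Col1a2 (mean value 2350, 12426 exon bases) stood above Col1a1 (1462, 6563 exon bases). The order of group means differed: Col3a1 led in WT proximal (463) and WT distal (597). Mmp15 led in cKO proximal (254, with Col3a1 at 102) and Lamb3 in cKO distal (377, with Col3a1 at 195). This order did not hold in every library. Before division by length, Lamb3 measured 1924, 753 and 4797 in cKO distal libraries, so library 3 weighed most in that mean. In WT distal library 3, Lamb3 (2621) stood above Col3a1 (802). Thus the list mixes the main chains of connective tissue fibrils with an epithelial laminin chain and a membrane-bound protease of similar level. The collagen IV chains Col4a1 (11.8) and Col4a2 (8.33) were an order of magnitude lower on the same scale.

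**Figure D1:**
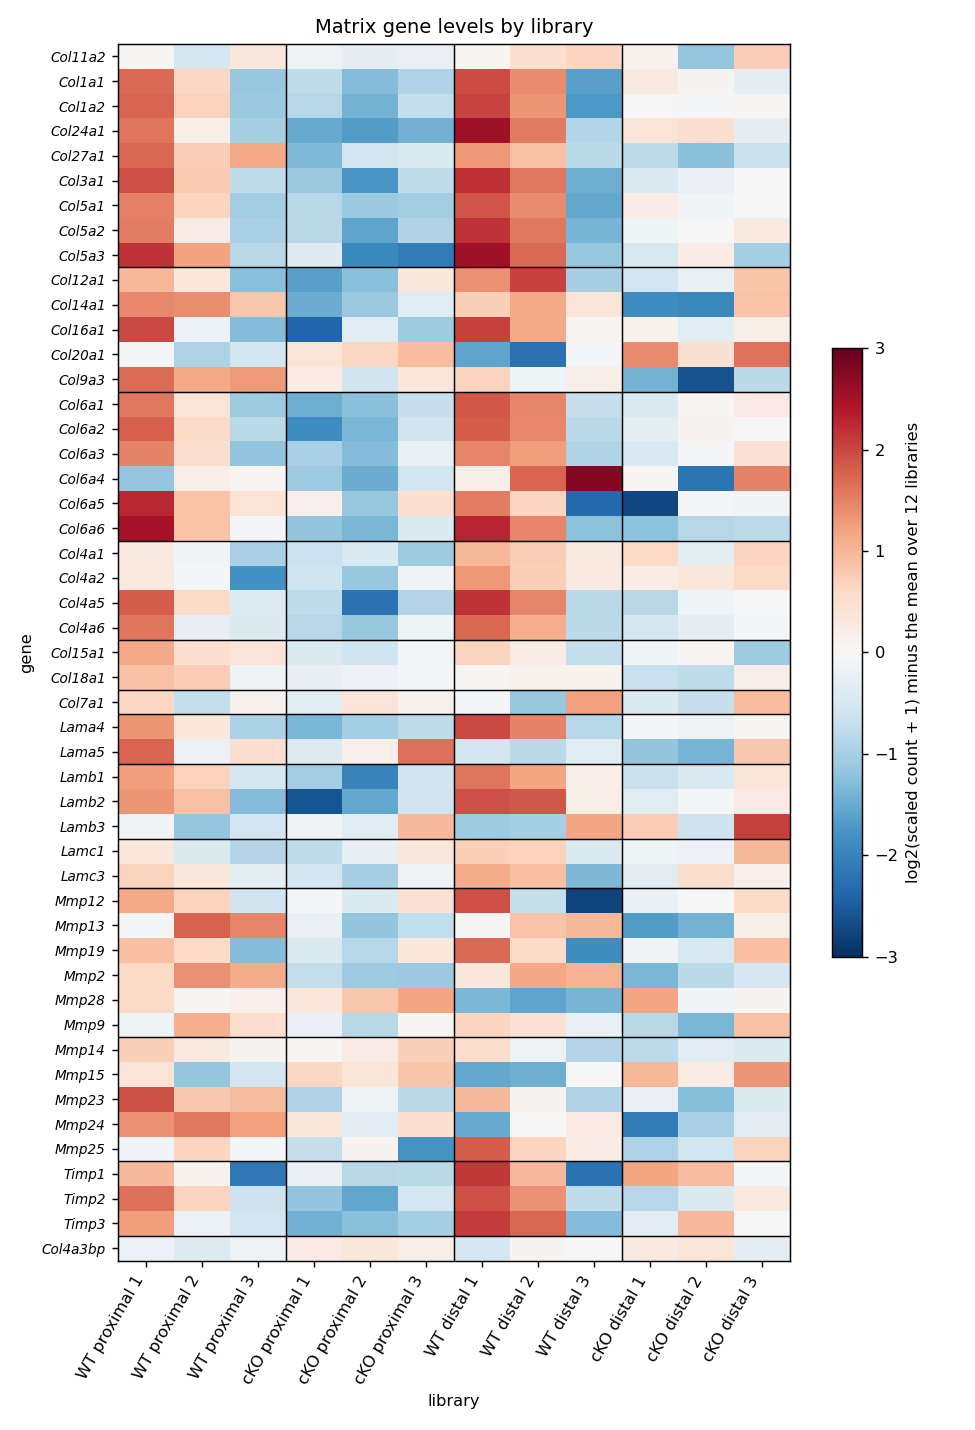
Level of 49 genes with a mean value of at least 10 (rows, grouped by family) in each of the 12 libraries (columns, grouped by genotype and segment), as the difference of log2(value + 1) from the gene's own mean over all libraries. Most collagen rows are high in the WT libraries numbered 1 and 2 and low in the WT distal library numbered 3 and the cKO proximal libraries. Mmp15 and Col20a1 are high in the cKO libraries of both segments and low in the WT distal libraries numbered 1 and 2.

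The spread between WT libraries was the first feature of the collagen data. Summed over the 34 collagen chains, normalised values were 23694, 11115 and 4066 in the WT proximal libraries numbered 1, 2 and 3, 3779, 2852 and 4509 in cKO proximal, 27745, 18527 and 3229 in WT distal and 6431, 6683 and 7336 in cKO distal libraries. WT libraries 1 and 2 of each segment lay above every cKO library of it, and WT library 3 lay among the cKO libraries proximally and below all of them distally. Of the 50 genes with a mean of at least 10, 42 were highest in WT proximal library 1 and 33 lowest in WT proximal library 3, and distally 35 were highest in WT library 1 and 35 lowest in WT library 3. The median ratio of the highest to the lowest library over the 27 collagen chains with a mean of at least 10 was 4.75 in WT proximal, 1.98 in cKO proximal, 6.14 in WT distal and 1.81 in cKO distal.

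Fibroblast markers moved along with this spread, but other connective tissue markers did not all do so. The sum of 12 endothelial markers was highest in WT library 3 of each segment (379, 360 and 481 in WT proximal, 480, 645 and 670 in WT distal libraries). Smooth muscle and pericyte markers summed to 2026, 1677 and 1401 in WT proximal and 1307, 1810 and 1472 in WT distal libraries. The summed value of 12 measured fibroblast markers (Pdgfra, Dcn, Lum, Dpt and others, of 14 listed; Dpt, Twist1 and Tcf21 had 0 reads in 1 or 2 libraries) was 1321 to 4095 in WT proximal, 736 to 1527 in cKO proximal, 1354 to 5890 in WT distal and 1227 to 2089 in cKO distal libraries. Their median log2 difference between cKO and WT was -1.44 proximally, where 0 of 12 passed the test, and -1.02 distally, where 2 of 12 fell. Among all genes, 4.21% were called higher and 4.05% lower in cKO proximally, and 13.3% higher and 11.7% lower distally (limma, adjusted p under 0.05). Epithelial markers rose in cKO for 3 of 12 proximally and 6 of 12 distally. Markers of macrophages and dendritic cells, which also make MMPs, fell for 7 of 12 proximally and 5 of 12 distally, and of B and plasma cells for 4 of 9 and 8 of 9. Smooth muscle and pericyte markers (0 of 12 called proximally, 1 higher distally), endothelial markers (1 higher and 2 lower in each segment), T cell markers (1 and 4 of 8 lower), neutrophil markers (0 of 6 in either segment) and enteric neuron and glia markers (0 of 5) were also measured, and mitochondrially encoded mRNAs fell for 2 of 12 in each segment. The neutrophil sum was 3055 in WT distal library 1 against 90.7 to 438 in the others. Macrophage and dendritic cell markers also had their highest sum there (26589). Several markers had 0 reads in some libraries, such as Lmod1 (smooth muscle), Emcn (endothelium) and Ly6g (neutrophil) in 5 each and Cnn1 (smooth muscle) in 3. The part of these cell types in the results was not tested, and in tissue RNA fewer cells of a type and less RNA per cell cannot be told apart.

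**Figure D2:**
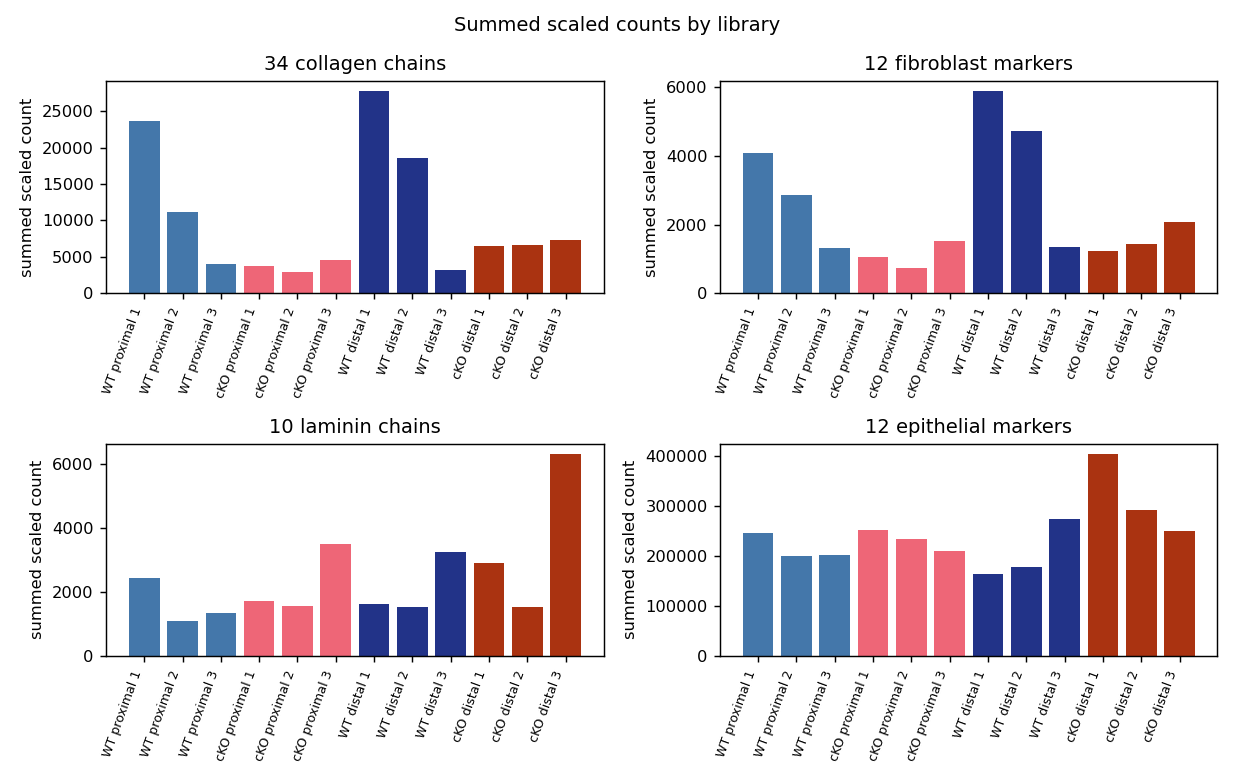
Summed normalised values (bars, y axes from 0) of the 34 collagen chains, the 12 fibroblast markers, the 10 laminin chains and the 12 epithelial markers in each of the 12 libraries. Collagen and fibroblast marker sums are highest in the WT libraries numbered 1 and 2 of both segments, while the laminin sum is highest in the cKO library numbered 3 of each segment.

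In the proximal intestine, 4 of the 65 genes differed between cKO and WT, all of them lower in cKO: Mmp2, Mmp23, Col27a1 and Col14a1. Among all genes measured, 8.26% passed the same threshold (limma, Benjamini-Hochberg adjusted p under 0.05), 4.21% higher and 4.05% lower. The log2 difference was below 0 for 53 of the 65 genes, with a median of -0.85 against 0.08 over all genes. By family, 2 of 34 collagen chains fell (median -1.07, 29 of them below 0), 0 of 10 laminin chains (median -0.47), 2 of 17 MMPs (median -0.75) and 0 of 3 TIMPs (median -1.39) passed. With the mitochondrial share of each library as a covariate 0 of 65 passed (1.7% of all genes), and without both cKO libraries numbered 1 Mmp2 alone (4.46% of all genes). DESeq2 called 17, all lower (13.4% of all genes), with 11 collagens, Lamb1, Lamb2, Mmp13 and Timp2 among them. The count was 1 or 2 without WT library 2 or any cKO library (3.38% to 4.72% of all genes). Without WT library 1 it was 4 (7.92% of all genes), but 2 of these were higher and 2 lower, and of the original 4 only Mmp2 was among them.

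In the distal intestine, 7 genes differed. Among them, Mmp28, Col20a1 and Mmp15 rose and Mmp2, Col9a3 and Mmp13 fell. The background was 25% of all genes, 13.3% higher and 11.7% lower, so the 7 of 65 were a smaller share than in the table as a whole. Here too 53 of 65 log2 differences were below 0, and the median was -0.66 against 0.06 over all genes. Medians were -0.79 for collagens, -0.10 for laminins, -0.66 for MMPs and -0.62 for TIMPs, and 1 collagen rose and 1 fell, and 2 MMPs rose and 2 fell. With the mitochondrial share as a covariate 2 genes passed, Col20a1 and Mmp28, both higher (7.9% of all genes). Without cKO library 3 the count was 12 (28.7% of all genes), as Col14a1, Col23a1, Col6a4, Mmp9 and Mmp20 were added, all lower. With DESeq2 it was 13 (28.5% of all genes), as Col6a6, Col27a1, Col4a5, Lamb1, Lamb2 and Timp2 were added, all lower.

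**Figure D3:**
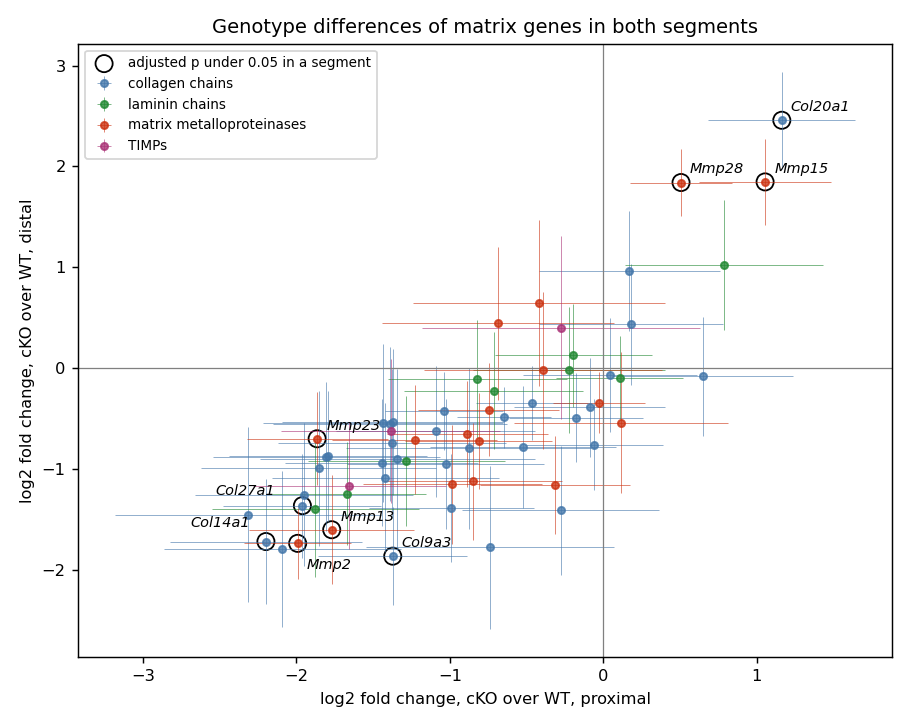
Log2 difference between cKO and WT in the proximal (x axis) and distal (y axis) intestine for 63 of the genes, without Col4a3bp, 1 point per gene with bars of 1 SE, coloured by family, with called genes circled and labelled. Most points lie at the lower left, below 0 on both axes, and Mmp28, Mmp15 and Col20a1 stand in the upper right.

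Mmp2 fell in both segments. It encodes gelatinase A, which cuts denatured collagen and collagen IV (chr8:92827291-92853420, plus strand, ENSMUSG00000031740; coordinates here and below are those of GENCODE M21 on GRCm38). Its normalised values were 68.4, 120.1 and 99.95 in WT proximal and 27.3, 21.2 and 20.5 in cKO proximal libraries (log2 difference -1.99, SE 0.35, limma adjusted p = 0.00451), a 3.98-fold lower level. Distally they were 57.2, 104 and 94.9 in WT and 17, 25.7 and 31.9 in cKO (log2 difference -1.74, SE 0.35, limma adjusted p = 0.00284). The groups did not overlap in either segment, and WT library 3, where the collagen sum was low, was not low in Mmp2. The call held without any 1 library in both segments (highest adjusted p 0.0289 proximally and 0.0191 distally).

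Mmp13, collagenase-3, which opens the triple helix of fibrillar collagens (chr9:7272514-7283331, plus strand, ENSMUSG00000050578), fell distally and did not pass proximally. Proximally it measured 56.8, 204 and 164 in WT and 50.5, 25.4 and 35.4 in cKO (log2 difference -1.77, SE 0.54, limma adjusted p = 0.0578), and distally 60.9, 108 and 120.2 in WT and 18, 21.6 and 67 in cKO (log2 difference -1.60, SE 0.54, limma adjusted p = 0.0425). Proximally all cKO libraries were below all WT libraries by a narrow margin at WT library 1, and distally cKO library 3 lay above WT library 1. Without WT proximal library 1, and with edgeR or DESeq2, the lower level in cKO passed proximally too. The distal call was lost without any of 4 of the 6 libraries (WT 2 or 3, cKO 1 or 2), with an adjusted p of up to 0.177. It was also lost with edgeR and kept with DESeq2.

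Mmp23, an MMP anchored in the membrane by its N-terminal end (chr4:155650655-155653384, minus strand, ENSMUSG00000029061), measured 297, 138 and 153 in WT proximal and 40.4, 69.9 and 43.8 in cKO proximal libraries (log2 difference -1.86, SE 0.46, limma adjusted p = 0.0257). These groups did not overlap, but the adjusted p rose to as much as 0.0827 without WT library 1 or 3 or cKO library 1 or 3. Distally the values were 155, 83.2 and 41.1 in WT and 66.7, 31.5 and 57.4 in cKO, which overlap (log2 difference -0.70, adjusted p = 0.293). The difference between the segments in this effect did not pass (limma interaction 1.17, adjusted p = 0.471).

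Neither Mmp9 nor Mmp14 passed in either segment with all libraries. Mmp9, gelatinase B, known from neutrophils and macrophages, measured 279.9, 669 and 446 in WT proximal and 273, 175 and 322 in cKO proximal libraries (log2 difference -0.81, adjusted p = 0.315 with limma), and 485, 424 and 266 in WT and 176, 119 and 573 in cKO distally (log2 difference -0.72, adjusted p = 0.296). The WT and cKO values overlapped in both segments, and distally the lower level in cKO passed without cKO library 3, the highest of the 6. Mmp14, the membrane-bound protease that activates the Mmp2 proenzyme, stood at 1003, 734 and 638 in WT proximal and 625, 716 and 992 in cKO proximal libraries (log2 difference -0.03, adjusted p = 0.966) and at 876, 546 and 329 in WT and 352, 487 and 448 in cKO distally (log2 difference -0.34, adjusted p = 0.443). The standard error of its proximal log2 difference was 0.302, and its groups overlapped in both segments.

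Mmp28, the secreted protease epilysin, known from epithelia (chr11:83440768-83463071, minus strand, ENSMUSG00000020682), rose in distal cKO. It measured 34.1, 28.8 and 32.7 in WT distal and 200.2, 83.8 and 93.6 in cKO distal libraries (log2 difference 1.84, SE 0.33, limma adjusted p = 0.00142), a 3.58-fold higher level. The lowest cKO library was above the highest WT library, and the 3 WT libraries lay close together. In the proximal intestine it measured 133, 92 and 98.9 in WT and 112, 156 and 200.4 in cKO (log2 difference 0.51, SE 0.33, limma adjusted p = 0.371), with overlap. A gene on the other strand, 1700020L24Rik, overlaps 12% of its exon bases, and whether the counting used strand is not given in the sources used here.

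Mmp15, a membrane-type MMP (chr8:95352268-95375080, plus strand, ENSMUSG00000031790), measured 308, 322 and 902 in WT distal and 1772, 1049.6 and 2244 in cKO distal libraries (log2 difference 1.85, SE 0.43, limma adjusted p = 0.00667). WT library 3 was the highest of WT and still below the lowest cKO library. Proximally it measured 1170.3, 398 and 599.7 in WT and 1382, 1147 and 1590.0 in cKO (log2 difference 1.06, SE 0.43, limma adjusted p = 0.142), where WT library 1 lay above cKO library 2 and the higher level in cKO passed without that WT library.

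Lamb3 encodes a beta chain of the laminin that anchors epithelium to its basement membrane through hemidesmosomes. It did not pass between genotypes in either segment with all libraries. Lamb3 (chr1:193207699-193343878, plus strand, ENSMUSG00000026639) measured 550.4, 576 and 2621 in WT distal and 1924, 753 and 4797 in cKO distal (log2 difference 1.02, adjusted p = 0.274 with limma), and 1077, 519 and 778 in WT and 1077, 915 and 2283 in cKO proximally (log2 difference 0.79, adjusted p = 0.481). Both distal groups of Lamb3 had their highest value in library 3, and the genotypes overlapped. Without WT distal library 3, Lamb3 was higher in cKO distally (log2 difference 1.76, SE 0.57, limma adjusted p = 0.0336).

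Lama5, Lamb1 and Lamc1, chains of another main epithelial laminin, did not pass between genotypes with limma and all libraries. Lama5 measured 256, 67.3 and 109 in WT proximal and 57.6, 84.8 and 239.5 in cKO proximal libraries, with cKO library 3 near WT library 1 (log2 difference -0.22, adjusted p = 0.858 with limma). Lamb1 measured 140.0, 94.3 and 39.8 in WT and 28.3, 13.8 and 38.2 in cKO proximally (log2 difference -1.67, adjusted p = 0.06), and 178, 133 and 66.4 in WT and 36, 42.3 and 74.4 in cKO distally (log2 difference -1.25, adjusted p = 0.0924). Every cKO proximal value of Lamb1 was below every WT proximal value, whereas distally cKO library 3 lay above WT library 3. The lower level of Lamb1 in cKO passed in each segment without WT library 3 and with DESeq2. Lamc1 was at 238, 140.3 and 104 in WT and 112, 161 and 241 in cKO proximally and 312, 309 and 142 in WT and 175, 168 and 384 in cKO distally, with overlapping groups (limma adjusted p = 0.901 and 0.898).

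Among collagens, Col20a1, a fibril-associated collagen with interrupted triple helices (chr2:180986535-181018363, plus strand, ENSMUSG00000016356), was the one chain that rose. It measured 23.1, 14.4 and 68.5 in WT distal and 192, 97.9 and 223 in cKO distal libraries (log2 difference 2.46, SE 0.48, limma adjusted p = 0.00235), a 5.49-fold higher level with no overlap. Proximally it was at 68.4, 37 and 48.4 in WT and 93.9, 111 and 137 in cKO (log2 difference 1.17, SE 0.48, limma adjusted p = 0.148), again without overlap.

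Col14a1, another collagen of this type that binds to the surface of fibrils (chr15:55307750-55520803, plus strand, ENSMUSG00000022371), fell in proximal cKO, from 61, 58.4 and 38.7 in WT to 7.07, 9.54 and 16.8 (log2 difference -2.20, SE 0.62, limma adjusted p = 0.0452). Col27a1, a fibrillar collagen known from cartilage (chr4:63214004-63334991, plus strand, ENSMUSG00000045672), fell from 65.2, 32.6 and 43 to 7.07, 12.7 and 14 (log2 difference -1.96, SE 0.52, limma adjusted p = 0.0338). Neither gene's groups overlapped proximally, yet both calls were lost without any 1 of the 6 libraries (adjusted p 0.0632 to 0.135 for Col14a1 and 0.0597 to 0.111 for Col27a1). Distally, Col14a1 measured 36.5, 49.3 and 28.5 in WT and 5.3, 4.98 and 40.4 in cKO (log2 difference -1.72, adjusted p = 0.0588 with limma), and cKO library 3 lay within the WT range; without it Col14a1 passed. Col27a1 measured 48.7, 36 and 10.5 in WT and 10.6, 7.47 and 11.7 in cKO there (log2 difference -1.36, adjusted p = 0.0684), and WT library 3 was at the cKO level; without it Col27a1 passed, as it did with edgeR and DESeq2.

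Col9a3, a chain of the cartilage collagen IX (chr2:180597790-180622189, plus strand, ENSMUSG00000027570), was low throughout. The value 0.83 in cKO distal library 2 stands for 0 reads. It measured 17, 9.25 and 11.6 in WT distal and 3.18, 0.83 and 5.32 in cKO distal libraries (log2 difference -1.86, SE 0.48, limma adjusted p = 0.0126), and 34.7, 23.6 and 25.8 in WT and 12.1, 6.36 and 13 in cKO proximally (log2 difference -1.37, SE 0.48, limma adjusted p = 0.0971). Groups did not overlap in either segment. The distal call was lost without WT library 1 or cKO library 2 (adjusted p up to 0.0555).

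**Figure D4:**
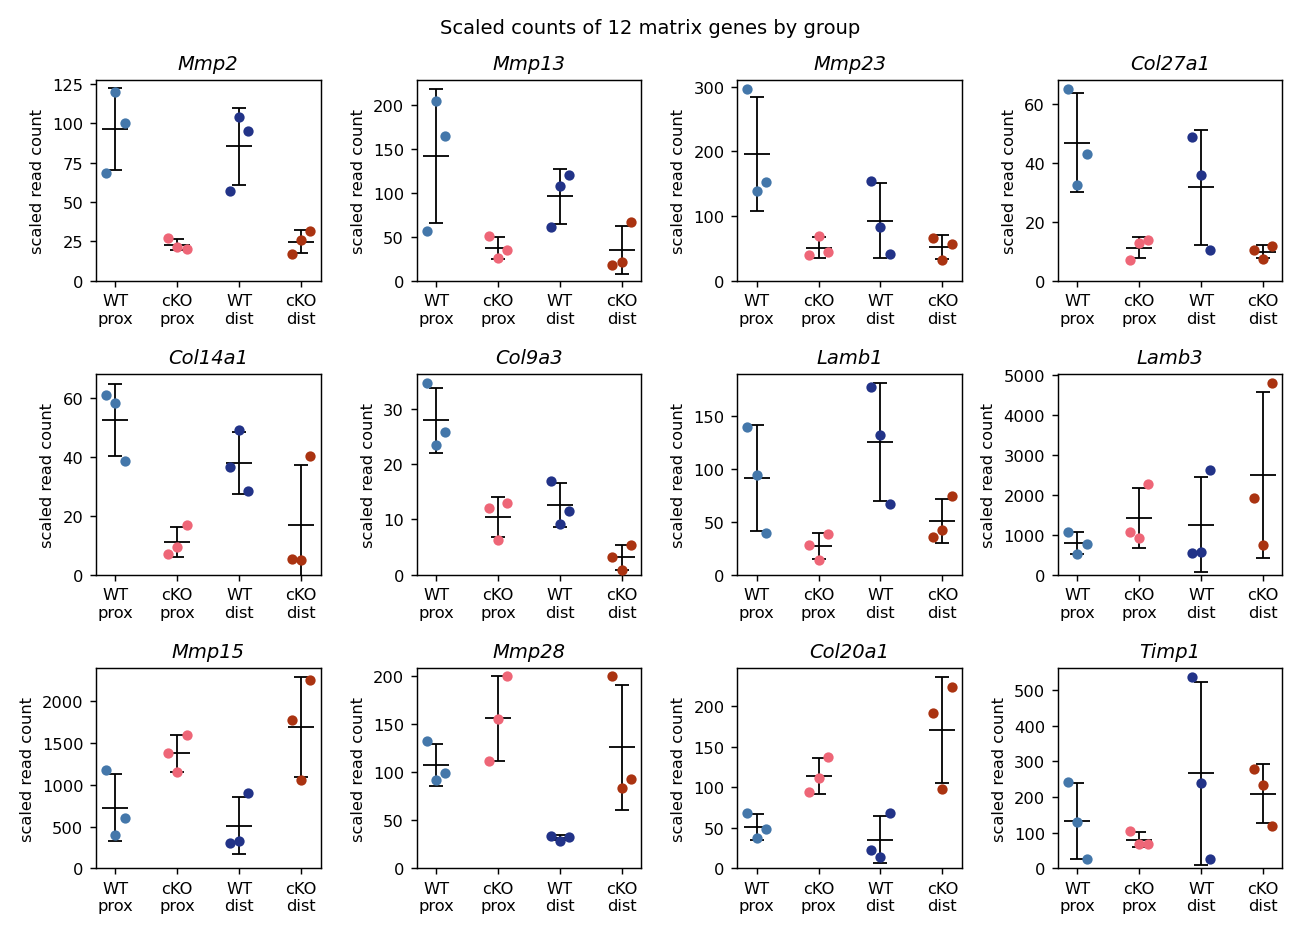
Normalised values (y axes from 0) of 12 genes in each library (points), with the mean and SD (bars) of each of the 4 groups of 3 libraries. The cKO points of Mmp2 lie below all WT points in both segments, and those of Mmp28, Mmp15 and Col20a1 above them distally.

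For genes called between genotypes, the promoter is shown where the RefSeq table held one (GRCm38.p6, plus or minus strand as the gene). Of the 65 genes 49 matched, with 54 windows. Each is read 5′ to 3′ and ends at the base before the start, except those of Mmp15 and Mmp28, which stop where GENCODE places the first exon. For Mmp23 the table held 2 overlapping windows, and the one upstream of all its GENCODE exons is shown. The Col27a1 window lies inside the GENCODE gene, past its annotated start at base 63214004 of chr4, and holds 0 bases of its exons. Capitals mark matches to 5 motifs searched on both strands. The AP-1 motif was spelled TGANTCA, the GC box was spelled GGGCGG, the TATA box was spelled TATAAA, a GC-rich SMAD element was spelled GGCGCC, and the fifth was CCAAT. No motif contains another. They were chosen because AP-1 is a classic regulator of MMP genes and SMADs are the transcription factors downstream of BMP receptors. The windows are Mmp13 at chr9:7272264-7272513, Mmp15 at chr8:95352046-95352267, Col20a1 at chr2:180986285-180986534 and Col27a1 at chr4:63215162-63215411, all on the plus strand, and Mmp23 at chr4:155653385-155653634 and Mmp28 at chr11:83463072-83463290, on the minus strand.
Mmp13: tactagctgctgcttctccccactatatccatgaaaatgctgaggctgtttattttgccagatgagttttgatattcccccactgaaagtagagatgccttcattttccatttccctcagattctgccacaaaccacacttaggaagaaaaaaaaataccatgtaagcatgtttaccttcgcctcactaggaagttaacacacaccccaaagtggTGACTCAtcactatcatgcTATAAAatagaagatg
Mmp15: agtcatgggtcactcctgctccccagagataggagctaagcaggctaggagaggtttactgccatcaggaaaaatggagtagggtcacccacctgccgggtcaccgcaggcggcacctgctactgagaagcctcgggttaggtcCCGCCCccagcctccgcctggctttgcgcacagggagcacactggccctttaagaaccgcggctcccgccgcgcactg
Col20a1: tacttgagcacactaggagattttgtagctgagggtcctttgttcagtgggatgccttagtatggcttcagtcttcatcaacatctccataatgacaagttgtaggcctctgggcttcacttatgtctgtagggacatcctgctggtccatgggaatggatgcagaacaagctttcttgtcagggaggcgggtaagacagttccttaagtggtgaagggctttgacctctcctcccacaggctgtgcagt
Col27a1: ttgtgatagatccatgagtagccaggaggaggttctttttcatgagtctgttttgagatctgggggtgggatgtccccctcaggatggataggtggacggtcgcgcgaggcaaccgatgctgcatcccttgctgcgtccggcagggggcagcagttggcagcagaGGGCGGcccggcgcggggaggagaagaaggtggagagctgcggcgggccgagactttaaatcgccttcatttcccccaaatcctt
Mmp23: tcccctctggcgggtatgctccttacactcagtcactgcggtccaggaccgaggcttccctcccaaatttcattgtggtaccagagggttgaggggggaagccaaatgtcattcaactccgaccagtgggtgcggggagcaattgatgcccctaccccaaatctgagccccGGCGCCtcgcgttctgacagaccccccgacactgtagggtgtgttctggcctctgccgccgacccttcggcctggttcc
Mmp28: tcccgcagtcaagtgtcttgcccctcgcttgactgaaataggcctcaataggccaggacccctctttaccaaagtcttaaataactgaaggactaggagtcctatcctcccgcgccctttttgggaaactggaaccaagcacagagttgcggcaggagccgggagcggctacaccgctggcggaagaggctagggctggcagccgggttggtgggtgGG
Mmp13, which was lower in distal cKO, held an AP-1 match 35 to 29 bases and a TATA box match 16 to 11 bases before its start. Mmp15, higher in distal cKO, held 1 GC box match (106 to 101 bases before the RefSeq start) and Col27a1, lower in proximal cKO, held 1 (85 to 80 bases). Mmp23, lower in proximal cKO, held 1 match to the SMAD element, 79 to 74 bases before this start. Mmp28, higher in distal cKO, held 2 GC box matches, 33 to 28 and 15 to 10 bases before the RefSeq start, of which the first 2 letters of the farther one end the stretch shown. Col20a1 held none of the 5. Over the 54 windows, AP-1 letters were in 9.26% against 6.75% of all 32851 windows of that length, GC boxes in 57.4% against 32.7%, TATA boxes in 13.0% against 12.4%, CCAAT in 29.6% against 33.9% and the SMAD element in 14.8% against 9.59%. A match describes letters only and is no evidence of binding.

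The main fibrillar collagens did not pass between genotypes in either segment with all libraries. Col3a1, the chain of collagen III, measured 8517, 3799.5 and 1308 in WT proximal and 1026, 664 and 1307 in cKO proximal libraries (log2 difference -1.86, adjusted p = 0.149 with limma). Col1a1 measured 3391, 1629.8 and 480.4 in WT and 624, 426 and 555 in cKO (log2 difference -1.39, adjusted p = 0.278), and its partner in collagen I, Col1a2, 5577, 2719.7 and 774 in WT and 925, 629 and 1019.6 in cKO (log2 difference -1.43, adjusted p = 0.273). In all 3 genes WT libraries 1 and 2 were above every cKO library, and WT library 3 was within or next to the cKO range.

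Distally, Col3a1 measured 10159, 6619.9 and 802 in WT and 1622, 1913 and 2203 in cKO, Col1a1 4065, 2796 and 337 in WT and 1266, 1109 and 860.2 in cKO, and Col1a2 6806, 4218 and 505 in WT and 1676, 1629.6 and 1724 in cKO. In each, WT library 3 was the lowest of the 6 (limma adjusted p 0.376, 0.639 and 0.658). All 9 fibrillar chains had a log2 difference below 0 in both segments (medians -1.43 and -0.75), as did all 6 chains of the beaded filament collagens (medians -1.39 and -0.92), with 1 call among these 15 genes, Col27a1. Without WT distal library 3, 25 of 65 genes passed distally (limma), 5 higher and 20 lower, against 15.9% and 13.0% of all genes. Col20a1, Mmp15, Mmp28 and Lamb3 were among the 5. The 20 held 14 collagens, with Col1a1, Col1a2, Col3a1 and Col6a1 among them, Lama4, Lamb1 and Lamb2, Timp2 and Timp3, and Mmp2. Without WT proximal library 3, 4 genes passed proximally, all lower (4.04% of all genes): Mmp2, which was called with all libraries too, and Col6a2, Lamb1 and Lamb2.

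Collagen VI forms beaded microfibrils around cells. Its most abundant chain, Col6a1, measured 1197, 519.7 and 190.2 in WT proximal and 143, 166 and 244 in cKO proximal libraries (log2 difference -1.44, adjusted p = 0.168 with limma), and 1442, 1105 and 246 in WT and 291, 408 and 467 in cKO distally (log2 difference -0.94, adjusted p = 0.301). WT libraries 1 and 2 stood above all cKO libraries of their segment, and WT library 3 was within the cKO range proximally and the lowest of 6 distally. The 15 genes with a mean value under 10 were Col4a3, Col8a1, Col8a2, Col13a1, Col17a1, Col23a1, Col25a1, Lama1, Lama2, Mmp8, Mmp10, Mmp11, Mmp17, Mmp20 and Mmp27. None had more than 18 reads in any library, and at this depth small differences in them were not detectable.

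None of the 3 measured TIMPs passed between genotypes with limma and all libraries (1 in each segment, Timp2, did with DESeq2). Timp2, which also takes part in the activation of the Mmp2 proenzyme, measured 1046, 525 and 217 in WT proximal and 146, 112 and 229 in cKO proximal libraries (log2 difference -1.66, adjusted p = 0.121 with limma). Distally it was at 1263, 868 and 195 in WT and 184, 249.7 and 408 in cKO (log2 difference -1.17, adjusted p = 0.197). WT library 3 overlapped the cKO values in both segments. Timp3, which binds to the matrix, measured 219, 80.8 and 61.3 in WT and 33.3, 38.1 and 45.7 in cKO proximally (log2 difference -1.39, adjusted p = 0.244), with no overlap, and 395, 306 and 36.9 in WT and 73.1, 182 and 92.5 in cKO distally, where WT library 3 was the lowest of all. Syn3 on the other strand overlaps 21.3% of its exon bases. Timp1 measured 242, 131 and 26.9 in WT and 104, 67.8 and 69 in cKO proximally and 537, 239 and 25.3 in WT and 278, 234 and 118 in cKO distally (limma adjusted p = 0.882 and 0.788), and WT library 3 of both segments was the lowest of its segment.

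The collagen IV pair of the basement membrane did not pass between genotypes. Col4a1 measured 95.8, 75.2 and 39.8 in WT proximal and 50.5, 57.2 and 37.3 in cKO proximal libraries, and 159.5, 133 and 97 in WT and 121, 65.5 and 125 in cKO distally (limma log2 differences -0.46 and -0.35, adjusted p = 0.461 and 0.532). Col4a2 measured 58.9, 47.1 and 12.9 in WT and 31.3, 21.2 and 45.7 in cKO proximally, and 119, 79.1 and 58 in WT and 56.2, 59.7 and 72.3 in cKO distally (-0.09 and -0.39, adjusted p = 0.936 and 0.61). Col18a1, a collagen of the same membranes that carries endostatin, was at 223, 201 and 109.6 in WT and 101, 107 and 117 in cKO proximally and 123, 129 and 129.7 in WT and 75.2, 70.5 and 139 in cKO distally (adjusted p = 0.202 and 0.265). Col7a1, the anchoring fibril collagen, was at 74.7, 29.2 and 52.7 in WT and 37.4, 63.6 and 53.1 in cKO proximally (log2 difference 0.04, adjusted p = 0.972). Col23a1, a transmembrane collagen, had values of 1.06 to 12.3 over the 12 libraries, and no comparison of it passed with all libraries (the distal one between genotypes did without cKO library 3). Col4a3bp, with 697, 603 and 710.4 in WT proximal and 930.1, 1001 and 895 in cKO proximal libraries, did not pass either (log2 difference 0.49, adjusted p = 0.14).

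Between distal and proximal WT intestine, 3 of 65 genes passed, against 24.1% of all genes (limma, 11.9% higher and 12.2% lower). Mmp28 fell from 133, 92 and 98.9 proximally to 34.1, 28.8 and 32.7 distally (log2 difference -1.71, SE 0.33, limma adjusted p = 0.00231), so the WT distal libraries, which cKO distal exceeded, were the low group among the 4. Mmp24, a membrane-type MMP, fell from 33.7, 39.3 and 30.1 to 3.65, 12.3 and 14.8 (log2 difference -1.82, SE 0.54, limma adjusted p = 0.0239), a call lost without WT proximal library 1 or 2 or WT distal library 1 (adjusted p up to 0.0964). BC029722 on the other strand overlaps 13.6% of the Mmp24 exon bases. Col8a1, a short-chain collagen, had 0 reads in all 6 proximal libraries and 4, 4 and 5 reads in the WT distal libraries (limma adjusted p = 0.0134). Its mean WT distal level was 1.46 times a floor of 3 reads per library. With so few reads this ratio is rough and no firm lower bound. The median log2 difference of the 65 genes was 0.18 against 0.04 over all genes.

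Libraries of the 2 segments carry shared sample names within a genotype, so they were also compared within pairs. With the pair as a block, 13 genes passed in WT (7 higher and 6 lower distally), against 28.7% of all genes (14.4% higher and 14.3% lower). Among the 7 were Col4a2 (adjusted p = 0.0134 with limma and the block), Col4a1 (0.0382), Col6a1 (0.0434), Col6a4 (0.0148), Lamc1 (0.0435), Lamb2 (0.0449) and Col8a1 (0.0181). Lower distally were Mmp28 (0.00307), Lama5 (0.0142), Mmp24 (0.0154), Col25a1 (0.0215), Mmp23 (0.0292) and Col9a3 (0.0473). The collagen IV chains Col4a1 and Col4a2 were thus higher, and the laminin alpha chain Lama5 lower, in WT distal than in WT proximal intestine of the same pair, while Col4a3, Col4a5 and Col4a6 differed in direction between the WT pairs. Lama5 measured 256, 67.3 and 109 proximally and 51.1, 43.2 and 59 distally in WT. Distal values exceeded proximal ones in all 3 WT pairs for 17 of 65 genes and were below them in all 3 for 11, against 28.7% and 26.3% of all genes.

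**Figure D5:**
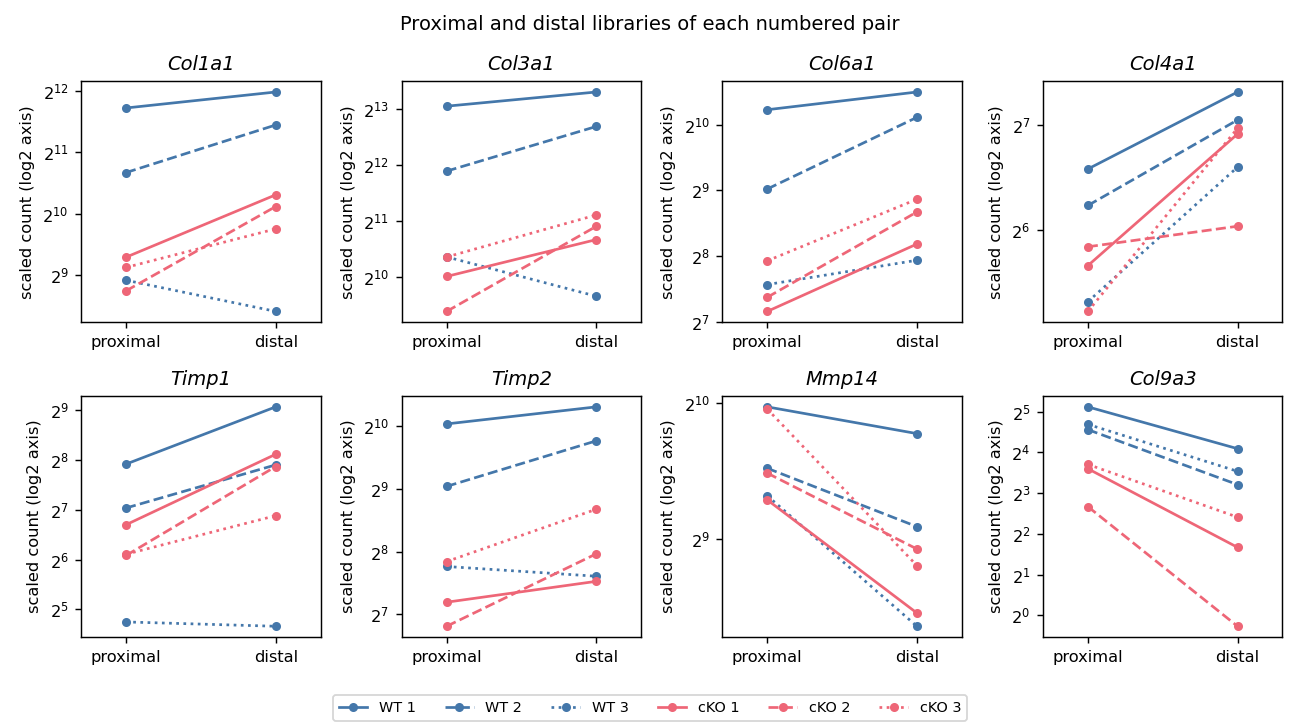
Normalised values (log2 axes) of 8 genes in the proximal and distal library of each numbered pair, joined by a line, for the 3 WT and 3 cKO pairs. Lines of Col1a1, Col3a1 and Timp1 rise in all 3 cKO pairs, and those of the WT pair numbered 3 fall.

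In cKO, 1 of 65 genes passed without the block, Col9a3, which was lower distally (12.1, 6.36 and 13 proximally and 3.18, 0.83 and 5.32 distally, log2 difference -1.60, SE 0.48, limma adjusted p = 0.0495), against 10.5% of all genes (4.16% higher and 6.36% lower). The call was lost without cKO proximal library 1 or 3 or cKO distal library 1 or 2 (adjusted p up to 0.18). With the pair as a block, 16 genes passed, 14 higher and 2 lower distally, against 15.1% of all genes (6.25% higher and 8.89% lower). The 14 held connective tissue collagens and all 3 TIMPs. Without the block, fibroblast markers were above 0 between the cKO segments for 10 of 12 (median log2 difference 0.78, 1 called, Pdgfrb), and smooth muscle and pericyte markers for 10 of 12 (median 0.97, 3 called, all higher), and the part of these cells in the rise was not tested. Col6a1, a chain of the microfibrillar collagen VI, rose from 143, 166 and 244 to 291, 408 and 467 (log2 difference 1.08, limma adjusted p = 0.323 without and 0.00276 with the block), and Col1a1 rose within the pairs from 624, 426 and 555 to 1266, 1109 and 860.2 (1.01, 0.467 and 0.0118). Each of these pairs moved up.

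Timp1 went from 104, 67.8 and 69 to 278, 234 and 118 within the cKO pairs (log2 difference 1.31, limma adjusted p = 0.417 without and 0.00849 with the block). The others of the 14 were Col6a2, Col24a1, Col1a2, Col5a1, Col5a2, Col3a1, Col4a1, Lamb2, Lama4, Timp2 and Timp3, with blocked adjusted p from 0.00445 to 0.0459. Mmp14 was, with Col9a3, lower distally, at 625, 716 and 992 proximally and 352, 487 and 448 distally (-0.84, 0.0972 without and 0.0104 with the block). All 3 cKO pairs rose for 27 of 65 genes and fell for 6, against 24.6% and 26.2% of all genes.

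A difference of the genotype effect between segments was tested as an interaction. It passed for 0 of 65 genes, against 0.576% of all genes (limma), with 1 gene, Mmp28, at an unadjusted p under 0.05. With edgeR and with DESeq2 the count was also 0, as it was with the pair as a block (2.68% of all genes). The log2 interaction of Mmp28 was 1.33 (SE 0.47, limma adjusted p = 0.22), so its distal and proximal genotype effects did not pass the test of their difference. The comparisons share groups of libraries and are not independent of each other.

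Genes that work with these proteins were also measured. Beside the counts in this and the next paragraph stand the shares of all genes called with limma. Proximally 4.21% were higher and 4.05% lower in cKO, and distally 13.3% were higher and 11.7% lower. Of 24 measured genes of collagen assembly and crosslinking, 0 rose and 1 fell in proximal cKO, the crosslinking oxidase Loxl3 (log2 difference -1.84, limma adjusted p = 0.0105). Distally 2 rose and 2 fell, among them P4hb, a subunit of collagen prolyl hydroxylase (1.73, adjusted p = 0.00629), and Loxl3 (-1.45, 0.0121) and Colgalt1, which glycosylates collagen (-1.01, 0.0124). Of 11 other basement membrane proteins, 1 rose and 1 fell proximally and 3 rose and 1 fell distally. Smoc2 was higher (limma log2 difference 2.35 and 2.74) and Nid2, a linker of laminin and collagen IV, lower (-1.58 and -2.34) in both segments, and Agrn rose distally (1.84).

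Among 21 other interstitial matrix proteins, 3 fell proximally, Postn (limma log2 difference -2.67, adjusted p = 0.00507), Eln (-2.65) and Tnxb (-2.51), and distally 1 rose, Fbln1 (2.09), and 3 fell, with Prelp (-1.81) and Tnc (-1.53) among them. Of 14 laminin and collagen receptors, 0 passed proximally and 8 rose and 0 fell distally, led by the integrin chains Itga2 (1.83), Itga3 (1.83) and Itga6 (1.18), which pair with beta chains into receptors for collagens and laminins. Their median log2 difference distally was 0.79. Of 16 ADAM and ADAMTS proteases, 2 fell proximally, Adamdec1 (-6.31) and Adam28 (-1.54), and distally 1 rose and 3 fell, Adamts10 (-2.03), Adamdec1 (-3.40) and Adam19 (-1.86). Of 10 other regulators of matrix proteases, 0 passed proximally and 2 rose distally, Bsg, which induces MMPs (1.10), and Furin, which activates membrane-type MMPs (0.65).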

How the data were processed

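Per the labels' protocols, Trizol was used to extract small intestine RNA and libraries were made by Ovation RNA-Seq System V2. The submitters' processing notes name mm10, STAR and DESeq2 1.28.1. The values deposited by the authors are a signal scaled per library: all 206100 were whole multiples of a step per column, within 0.001 steps, that is, (reads + 1) over a size factor, and the count tests used the whole reads recovered in this way. The log2 fold change, its error, the Wald score and the p-value that the authors deposited compare cKO proximal with WT distal and were not used. No count table was at hand, so the test set for scaled values was used: limma 3.58.1 in R 4.3.3, with trended empirical Bayes variances, fitted log2(value + 1) of all 12 libraries by 4 group means, with p adjusted by Benjamini-Hochberg over 17175 genes and called under 0.05. All members were tested, with no filter on low values. The comparisons were cKO against WT per segment, distal against proximal per genotype, and their interaction; edgeR 4.0.16, DESeq2 1.42.0, limma-voom, TMM scaling, other pseudocounts, a filter, a replicate block, the mitochondrial share and left-out libraries were alternatives. Proximal and distal libraries of 1 genotype share sample names in the labels, and for that reason the number was used to pair them. Their deviations from the group means correlated at r = 0.380, 0.255 and 0.375 in WT and 0.223, 0.289 and 0.413 in cKO. Unequal numbers of 1 genotype gave -0.481 to 0.0902 between segments, and WT distal 3 with cKO distal 1 gave 0.295. These correlations alone do not establish the pairing. Named were called members (up to 8 each way per comparison), the most abundant of each class and the main laminin, collagen I and IV, gelatinase and TIMP genes; 1 such gene is not reported here, though totals include it. Members of the blocked counts, of the counts without WT distal library 3, Loxl3 and the other list genes were named as called or by smallest p. The members and lists were chosen with earlier results of these data known. The fits were tested on simulated data.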

Additional observations from a re-analysis of the deposited data

How the results depend on the processing

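Among single named genes, 181 of 236 called values kept their call under the alternatives, 55 lost it and 0 changed sign, while 2333 uncalled values stayed uncalled and 56 passed. Counts of called genes moved by over 1.5 times as follows. Proximally (4 with limma), DESeq2 called 17 (13.4% of all genes) and the mitochondrial share as covariate 0 (1.7%). The fit without both cKO libraries numbered 1 called 1 (4.46%). Leaving out 1 library gave 1 to 4 (3.38% to 7.92% of all genes). The 4 without WT proximal library 1 were 2 higher and 2 lower. Distally (7), DESeq2 called 13 (28.5% of all genes), the covariate 2 (7.9%) and left-out libraries 5 to 25 (14.4% to 28.8%). Between segments in WT (3), the replicate block gave 13 (28.7% of all genes) and left-out libraries 2 to 8 (15.96% to 22.85%). In cKO (1), the block gave 16 (15.1% of all genes) and DESeq2 2 (16.1%). TMM, edgeR, limma-voom, a pseudocount of 5 and a mean value of at least 10 each gave 0 (10.4% to 12.4%). The fit without both cKO libraries numbered 1 also gave 0 (5.02%). Left-out libraries gave 0 to 2. The interaction count was 0 in all settings run (0.0116% to 3.46% of all genes). The cause of these shifts was not tested. Against the other genotype the numbers do not pair (r from -0.19 to 0.07 for equal numbers in a segment), and the block gave 6 proximally (8.08% of all genes) and 7 distally (24.7%). TMM scaling moved the share of higher calls among all genes proximally from 51.0% to 40.6%, and limma-voom the median log2 difference of all genes from 0.08 to -0.02. The members' proximal median was -0.85 with limma, -1.08 with TMM, -1.18 with limma-voom, -1.41 with edgeR, -1.40 with DESeq2 and -0.45 with the covariate. Distally it was -0.66, against -1.22 with edgeR, -1.24 with DESeq2, -0.21 with the covariate, -0.23 without WT distal library 1 and -1.18 without WT distal library 3. Between segments in WT, the members' median was 0.18 with all libraries and -0.20 without WT distal library 1. Depth limits the 15 genes with 0 reads in some library.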

Other observations

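Ratios of chains that assemble together or lie in the same fibrils, and of proteases to inhibitors, were computed per kilobase of exon after the values had been seen, and are given as description. The length was that of all annotated exons of a gene, so the size of a ratio depends on the annotation. The comparison of a ratio between libraries does not depend on that length. Col1a1 over Col1a2, the chains of collagen I, lay between 0.945 and 1.43 over all 12 libraries. Col6a1 over Col6a2 was 1.70 to 2.67, Col5a1 over Col5a2 1.02 to 1.74 and Col3a1 over Col1a1, chains of different fibrillar collagens, 0.857 to 1.82. Col4a1 over Col4a2, the chains of 1 collagen IV helix, varied more, from 0.724 to 2.73. The laminin ratio Lamb1 over Lamc1 was 0.318 to 0.561 in WT proximal against 0.0713 to 0.210 in cKO proximal libraries, and 0.358 to 0.476 in WT distal against 0.162 to 0.210 in cKO distal libraries. The genotypes did not overlap in either segment, and WT proximal library 3 had the lowest WT ratio of both segments. With 3 libraries against 3, an exact two-sided permutation test cannot go below p = 0.1.

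Mmp14 over Timp2, the membrane-bound protease against its inhibitor, was 0.627 to 1.92 in WT proximal and 2.79 to 4.17 in cKO proximal libraries, and 0.411 to 1.10 in WT distal and 0.717 to 1.27 in cKO distal libraries. The ratio was higher in cKO without overlap proximally, and the groups overlapped distally. Mmp2 over Timp2 (0.0524 to 0.562) and Mmp9 over Timp1 (0.128 to 4.17 over all 12 libraries) overlapped between genotypes in both segments.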
